A study of Mus musculus with 18 samples.

Results

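The genes described here are the neighbours of Ezr, the gene that was deleted in this mouse model, on chromosome 17. A gene was included where its start lay at most 10 Mb from the Ezr start on GRCm39 and where it had at least 10 counts in at least 3 of the 18 libraries. Ezr itself, Ccr6 and Sod2 were left out by the same definition. Of 113 rows of the deposited table inside the window, 78 genes were included, out of 21254 rows in the whole table and 16055 that passed the same count limit. They were 60 protein-coding genes, 7 lncRNAs and 11 pseudogenes of 4 annotation classes.

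RNA was sequenced in bulk from 3 populations of myeloid cells sorted from perfused lungs 24 h after mice were nebulized for 15 min with 12.5 mg of Pseudomonas aeruginosa LPS in 5 ml PBS. The populations were moMs (CD45+CD11b+MHC-II-Ly6C+), tnsIMs, which the labels call trIM (CD45+CD11b+MHC-II+Ly6C+), and matIMs (CD45+CD11b+MHC-II+Ly6C-), each with 3 WT and 3 Ezr-KOm libraries. Ezr-KOm mice (EzKO in the labels) carry floxed Ezr alleles and Cre recombinase expressed from the Cx3cr1 locus, the WT controls carry the same Cre and no floxed Ezr, and both genotypes share the C57BL/6 background. The mice were of both sexes and 3 to 5 months old. The Cx3cr1 promoter is also active in some dendritic, NK and other cells, the 3 populations were taken from the same mice, and every Ezr-KOm mouse carries the floxed segment of chromosome 17, so that the loss of ezrin and the segment around the floxed allele cannot be told apart in these libraries.

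Ezrin links the plasma membrane to cortical actin. Its gene lies in a stretch of mouse chromosome 17 that is rich in recently duplicated genes. Several neighbours are present as families of near-identical copies, among them the Dynlt1 genes, which encode a Tctex-type light chain of the cytoplasmic dynein motor, the Tmem181 gene with its pseudogene copies, and the Gpr31, Rsph3, Rnaset2 and Tagap families. Further along lie genes of other functions, such as Igf2r with its imprinted antisense transcript Airn, the chaperonin subunit Tcp1 and the proteasome subunit Psmb1.

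The Dynlt1 sequences are shown because the change with the smallest p among these genes fell on 1 copy of this family. The first 60 bases of the coding sequence of 342 bases annotated for each copy are given 5' to 3' from the start codon (GRCm39, Gencode vM39), with the only base that differs among the 4 coding sequences in capitals.
Dynlt1a: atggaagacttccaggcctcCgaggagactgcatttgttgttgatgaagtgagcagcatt
Dynlt1b: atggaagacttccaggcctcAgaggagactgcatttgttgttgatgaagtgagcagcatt
Dynlt1c: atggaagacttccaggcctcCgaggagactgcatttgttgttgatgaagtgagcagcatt
Dynlt1f: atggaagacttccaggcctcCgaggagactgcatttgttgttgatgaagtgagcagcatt
Counted from the A of the start codon, with Dynlt1b as the reference, each of the other 3 copies carries A21C, at base 3 of codon 7, and the encoded protein is the same. On chromosome 17 the coding sequences run from 6361148 to 6367675 on the minus strand for Dynlt1a, from 6697611 to 6703366 on the plus strand for Dynlt1b, from 6869209 to 6874970 on the plus strand for Dynlt1c and from 6916666 to 6923199 on the minus strand for Dynlt1f. For Dynlt1a, Dynlt1c and Dynlt1f, an annotated coding sequence of the same length as that of Dynlt1b was taken. Other transcripts of these copies were not compared. A read inside the coding sequences shown could thus tell Dynlt1b from the others at 1 position only, and the remaining information lies in the rest of the exons.

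A second pair, 9030025P20Rik and Gm3435, is shown because its copies behaved differently in the libraries. Their coding sequences of 1317 bases (15199156 to 15211066 and 15230528 to 15242434, both on the plus strand) differ at 4 bases, A869G, A972G, C1138T and G1266A, counted from the start codon with 9030025P20Rik as the reference. Bases 839 to 898 around the first of these are given with the differing base in capitals.
9030025P20Rik: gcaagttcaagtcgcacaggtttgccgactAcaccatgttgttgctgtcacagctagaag
Gm3435: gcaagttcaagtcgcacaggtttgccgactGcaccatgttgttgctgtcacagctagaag
Among the other families, the coding sequences were identical over 780 bases in Rnaset2a and Rnaset2b. They were identical at 1538 of 1551 aligned bases (99.2%) in Rsph3a and Rsph3b, and at 1448 of 1516 (95.5%) in Tagap1 and Tagap.

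The 18 libraries held 16512783 to 48460995 counts, with a tnsIM Ezr-KOm library the deepest. Levels are given as counts scaled to the library total (CPM) after TMM scaling, and changes as log2 fold changes of Ezr-KOm over WT from edgeR's quasi-likelihood test, with adjusted p by Benjamini-Hochberg over the 15811 genes tested. Ezr was lower in every Ezr-KOm library than in every WT library of its population, at 160 to 282 against 497 to 593 CPM in moMs, 126 to 234 against 515 to 679 CPM in tnsIMs and 93.9 to 167 against 611 to 741 CPM in matIMs. The 9 monocyte and macrophage markers summed to 8989 CPM or more in each library. In matIMs their sum was lower in Ezr-KOm without overlap, at 10130 to 11160 CPM in WT and 8989 to 9604 CPM in Ezr-KOm. Ly6c2 measured 401 to 582 CPM in moMs and 28.7 to 76.6 CPM in matIMs, and the sum of 4 MHC class II genes was 3714 to 6678 CPM in moMs and 40200 to 55690 CPM in matIMs. No marker of T and NK cells, B cells, neutrophils, dendritic cells, alveolar macrophages, epithelium, endothelium or fibroblasts was at 0 over a whole group. Some of these lists summed high in both genotypes. The alveolar macrophage list reached 4930 to 8384 CPM in moMs. Nearly all of this was Chil3 (4888 to 8341 CPM), and Siglecf of the same list measured 1.25 to 3.04 CPM. The epithelial list reached 625 to 1954 CPM in tnsIMs, mostly from Sftpc (572 to 1876 CPM). The dendritic list reached 2461 to 3486 CPM in matIMs, mostly from Ccr7 (1481 to 2418 CPM) and Cd209a (439 to 1193 CPM). Of those lists only the fibroblast one held calls by the rule used below (2, 1 and 1 of 3 markers in moMs, tnsIMs and matIMs). Its sum was higher in Ezr-KOm without overlap in moMs and matIMs. It was 9.49 to 14.7 CPM in WT and 20.8 to 24.7 CPM in Ezr-KOm moMs, and 6.30 to 11.5 CPM in WT and 13.5 to 15.8 CPM in Ezr-KOm matIMs. The part of the fibroblast signal in the results was not tested. In bulk libraries, fewer cells of a type and less RNA per cell cannot be told apart.

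The comparison of Ezr-KOm with WT within each population asked whether genes beside the deleted locus changed with it. Genes were called by the criteria of the study, which were a fold change of more than 0.75 on the log2 scale in either direction and p below 0.05 before adjustment. By this rule 12 of the 75 tested neighbours (16%) were called in moMs, where 2.51% of all tested genes were called. In tnsIMs 11 of 75 (14.7%) were called against 1.83% of all genes, and in matIMs 12 of 75 (16%) against 2.40%. The calls were 7 higher and 5 lower in moMs (background 1.55% higher and 0.961% lower), 8 higher and 3 lower in tnsIMs (1.08% and 0.759%), and 10 higher and 2 lower in matIMs (1.41% and 0.987%). At an adjusted p under 0.05, the counts were 6 of 75 in moMs (0.171% of all genes), 7 of 75 in tnsIMs (0.164%) and 5 of 75 in matIMs (0.152%). Most neighbours were not called. In moMs the median log2 fold change over the 75 genes stood at -0.00, in tnsIMs at -0.04 and in matIMs at -0.06, and the median over all tested genes stood at 0.00 in each. The calls went in both directions, and the median absolute log2 fold change was larger among the neighbours, at 0.36 against 0.15 over all tested genes in moMs, 0.24 against 0.16 in tnsIMs and 0.27 against 0.16 in matIMs, a description with no test. Pde10a, Unc93a and Thbs2 did not pass the filter on low counts and were not tested.

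**Figure D1:**
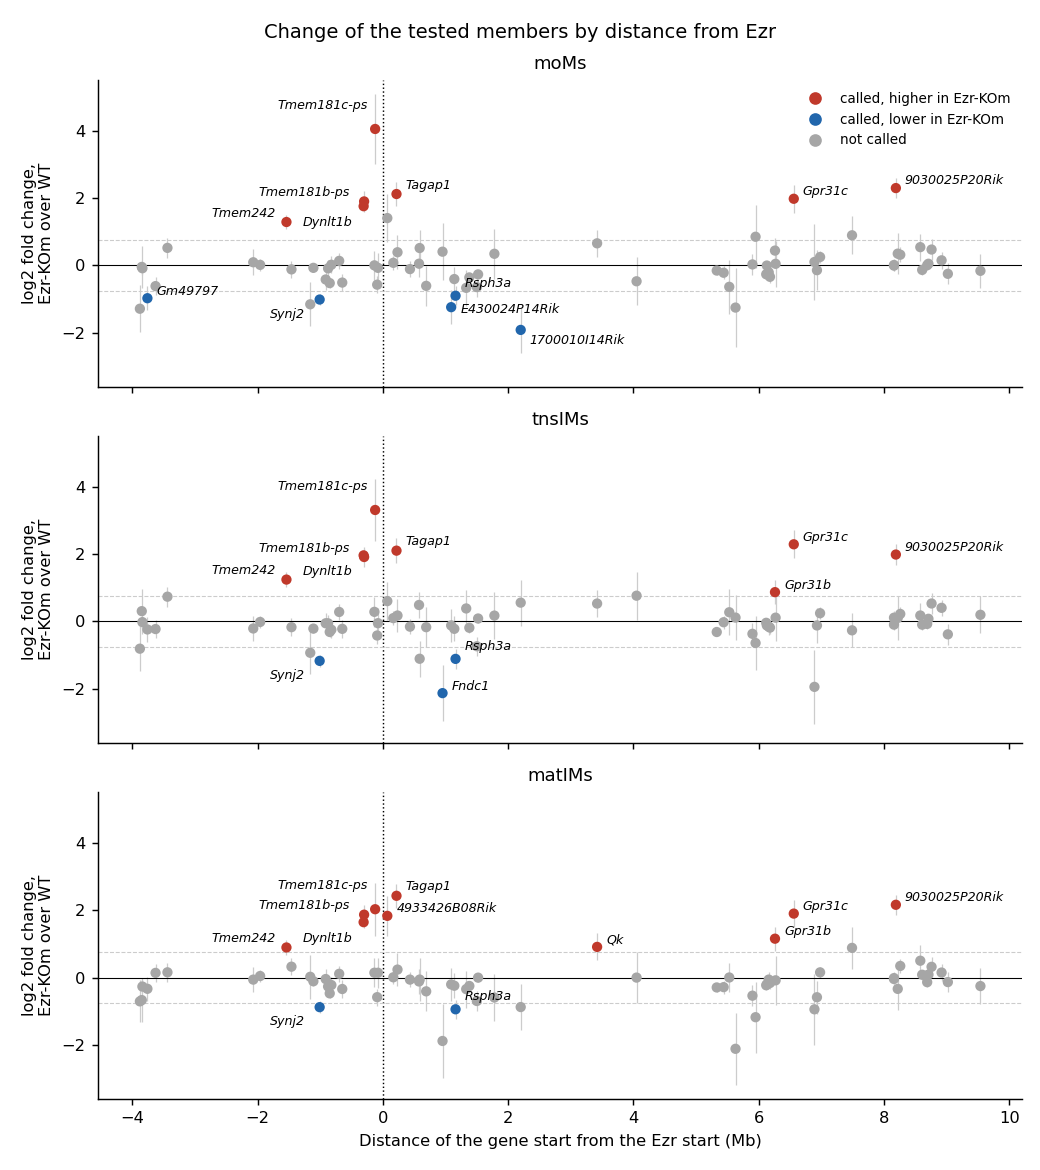
The log2 fold change of Ezr-KOm over WT (vertical axis, bars are standard errors) is plotted against the distance of each gene's start from the Ezr start in Mb (horizontal axis) for the 75 tested neighbours in moMs, tnsIMs and matIMs; red and blue mark genes called higher or lower, dashed lines the fold limit of 0.75. The called genes form a small set that is much the same in the 3 panels, on both sides of Ezr, amid neighbours near 0, and the fitted value of Tmem181c-ps rests on very few counts.

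The same 9 neighbours were called in the same direction in all 3 populations, 12% of those tested, against 0.386% of all tested genes. They were Dynlt1b, Tmem181b-ps, Tmem181c-ps, Tagap1, Gpr31c, 9030025P20Rik and Tmem242, which were higher in Ezr-KOm, and Synj2 and Rsph3a, which were lower. For these 9 and no other neighbour, the 3 Ezr-KOm libraries lay entirely on 1 side of the 3 WT libraries in each population, which held for 0.576% of all tested genes. In a population taken alone, non-overlapping libraries were found for 24 of the 75 neighbours in moMs, 16 in tnsIMs and 19 in matIMs, against 8.52%, 5.81% and 10.1% of all genes. Since the same mice gave the 3 populations, agreement between populations is not agreement between independent animals. Tmem181c-ps reached the count limit in Ezr-KOm libraries only and so had to be higher there. Without it, 11, 10 and 11 of 74 neighbours were called in moMs, tnsIMs and matIMs, 23, 15 and 18 did not overlap, and 8 were called and did not overlap in all 3.

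Dynlt1b (0.308 Mb before the Ezr start) encodes a dynein light chain and was the neighbour with the smallest p in each population. In moMs it measured 9.05, 11.2 and 10.9 CPM in WT and 32.8, 37.3 and 35.7 CPM in Ezr-KOm libraries. In tnsIMs the values were 5.55, 7.23 and 6.94 CPM against 30.3, 21.2 and 25.5 CPM, and in matIMs 7.05, 6.37 and 7.75 CPM against 20.8, 19.8 and 25.7 CPM. The lowest Ezr-KOm library thus lay well above the highest WT library in each population, and the spread within a group was small beside the difference. The log2 fold change was 1.76 ± 0.17 (SE, adjusted p = 1.51e-05) in moMs, 1.97 ± 0.17 (adjusted p = 3.65e-06) in tnsIMs and 1.65 ± 0.17 (adjusted p = 4.88e-05) in matIMs.

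The other 3 Dynlt1 copies were not called in any population. Dynlt1f, the copy nearest to Ezr, measured 9.99 to 11.6 CPM in WT and 6.96 to 7.87 CPM in Ezr-KOm moMs, without overlap, and its log2 fold changes of -0.57, -0.42 and -0.58 in moMs, tnsIMs and matIMs missed the fold limit (adjusted p = 1.00 in each, edgeR). Dynlt1a gave log2 fold changes of -0.51, -0.22 and -0.34, and Dynlt1c 0.00, 0.29 and 0.14, none of them called. As a result the makeup of the family differed between the genotypes. Dynlt1b took 28.4% to 33.8% of the summed CPM of the 4 rows in WT moMs and 66.5% to 68.6% in Ezr-KOm moMs. The shares were 31.6% to 41.6% against 67.4% to 77.3% in tnsIMs and 28.4% to 33.5% against 59.7% to 66.9% in matIMs. Dynlt1f fell in share, from a mean of 34.1% to 14.3% in moMs, 34.0% to 12.9% in tnsIMs and 39.2% to 17.1% in matIMs.

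The 4 Dynlt1 rows were also summed to 1 row. The sum removes any exchange of reads among the rows, but it does not restore reads that were dropped for lack of a unique place. The summed family measured 31.9, 33.2 and 32.2 CPM in WT and 49.3, 54.3 and 52.3 CPM in Ezr-KOm moMs. It measured 16.7, 17.4 and 21.98 CPM against 44.96, 27.4 and 36.9 CPM in tnsIMs, and 21.0, 20.7 and 27.3 CPM against 34.9, 29.6 and 40.2 CPM in matIMs. Every Ezr-KOm library was still above every WT library of its population. The log2 fold change of the sum was 0.68 ± 0.18 (adjusted p = 0.310) in moMs, 0.96 ± 0.18 (adjusted p = 0.0305) in tnsIMs and 0.60 ± 0.18 (adjusted p = 0.635) in matIMs, so the sum was called in tnsIMs and was under the fold limit in the others. Of the other cytoplasmic dynein 1 subunits, which lie outside the window, 8 were tested (the heavy chain Dync1h1, Dync1i2, Dync1li1, Dync1li2, Dynll1, Dynll2, Dynlrb1 and Dynlt3). None was called in any population, with log2 fold changes between -0.28 and 0.15.

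Tmem181b-ps, a transcribed unprocessed pseudogene 0.300 Mb before the Ezr start, and Tmem181c-ps are copies of Tmem181a, which encodes a transmembrane protein. Tmem181b-ps measured 4.50, 4.10 and 3.90 CPM in WT and 13.7, 16.2 and 16.9 CPM in Ezr-KOm moMs, 1.88, 2.79 and 3.61 CPM against 10.1, 7.46 and 13.9 CPM in tnsIMs, and 2.31, 2.44 and 5.03 CPM against 10.4, 11.8 and 13.7 CPM in matIMs. The groups did not overlap, and the log2 fold change was 1.90 ± 0.30 (adjusted p = 0.00446), 1.92 ± 0.30 (adjusted p = 0.00573) and 1.87 ± 0.30 (adjusted p = 0.00689). Its parent Tmem181a, at 12.7, 14.8 and 15.5 CPM in WT and 14.01, 17.1 and 16.1 CPM in Ezr-KOm moMs, overlapped between the genotypes, with log2 fold changes of 0.14, 0.28 and 0.11, none called. The share of Tmem181b-ps in the 3 rows went from a mean of 22.6% to 49.2% in moMs, 18.2% to 40.2% in tnsIMs and 18.5% to 44.0% in matIMs. The sum of the rows whose symbol starts with Tmem181 gave log2 fold changes of 0.77 (adjusted p = 0.485), 0.77 (adjusted p = 0.619) and 0.67 (adjusted p = 0.798), past the study's fold limit in moMs and tnsIMs only.

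Tmem181c-ps, 0.124 Mb before the Ezr start, was barely counted. WT libraries held 1, 0 and 0 counts in moMs, 0, 1 and 1 in tnsIMs and 3, 3 and 0 in matIMs, and Ezr-KOm libraries held 4, 12 and 8 counts in moMs, 8, 21 and 7 in tnsIMs and 12, 9 and 8 in matIMs. The ratio of the summed counts per depth was 22.3 in moMs (95% exact binomial interval 3.64 to 919), 12.1 in tnsIMs (3.12 to 104) and 4.40 in matIMs (1.80 to 13.0), where the intervals cover counting error only. Tmem181c-ps reached the count limit in Ezr-KOm libraries only and so had to be higher there in some population. The ratios and intervals are therefore a description. The call in matIMs was lost without WT library 3 (log2 fold change 1.42) or without Ezr-KOm library 1 (1.87).

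**Figure D2:**
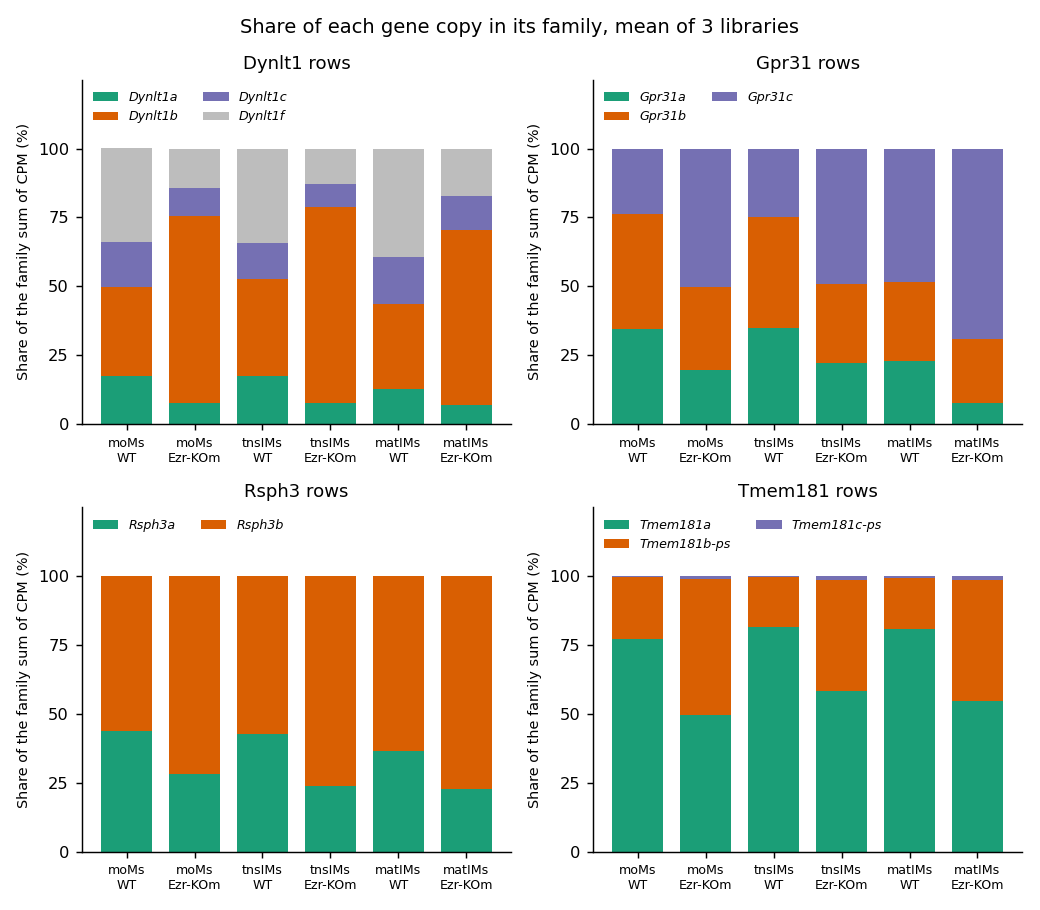
Stacked bars give the mean share of each gene copy (%) in the summed CPM of its family over the 3 libraries of a group, for the Dynlt1, Gpr31, Rsph3 and Tmem181 rows, with WT and Ezr-KOm side by side in each population. Dynlt1b, Gpr31c, Rsph3b and Tmem181b-ps took a larger share in Ezr-KOm than in WT in all 3 populations.

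Tagap1, 0.217 Mb after the Ezr start, is a mouse relative of Tagap, which encodes a GTPase-activating protein of activated leukocytes. In moMs it measured 12.7, 8.74 and 6.65 CPM in WT and 65.7, 22.3 and 33.9 CPM in Ezr-KOm libraries. In tnsIMs it measured 7.97, 9.01 and 10.03 CPM against 56.7, 24.4 and 35.4 CPM, and in matIMs 10.5, 9.44 and 10.96 CPM against 72.3, 37.7 and 56.6 CPM. The groups did not overlap, and Ezr-KOm library 1 was the highest and library 2 the lowest in each population. The log2 fold change was 2.12 ± 0.36 (adjusted p = 0.0121), 2.11 ± 0.36 (adjusted p = 0.0135) and 2.43 ± 0.36 (adjusted p = 0.00338). Without Ezr-KOm library 1 of its own population the change was still called by the study's rule, but the adjusted p was 0.11 in moMs and 0.112 in tnsIMs (edgeR). Over all alternatives the adjusted p ran from 3.4e-06 to 0.145 in moMs, 4.33e-06 to 0.136 in tnsIMs and 9.82e-09 to 0.0439 in matIMs (edgeR or DESeq2).

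Tagap itself was more abundant and was not called in any population. It measured 146, 91.2 and 131 CPM in WT and 153, 50.1 and 74.9 CPM in Ezr-KOm moMs, with library 2 the lowest in both genotypes, and its log2 fold changes were -0.40 ± 0.37, -0.22 ± 0.37 and -0.24 ± 0.37. Without Ezr-KOm library 1 in moMs, Tagap was called lower (log2 fold change -0.99, unadjusted p = 0.016, adjusted p = 1.00, edgeR). The sum of Tagap and Tagap1 gave 0.01, 0.23 and 0.19, none called.

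Gpr31b encodes a G protein-coupled receptor, and Gpr31c and Gpr31a are annotated as processed pseudogenes of it. Gpr31c, 6.56 Mb after the Ezr start, measured 1.37, 1.87 and 1.81 CPM in WT and 6.83, 5.05 and 8.24 CPM in Ezr-KOm moMs, 1.21, 1.71 and 2.94 CPM against 11.01, 3.75 and 14.5 CPM in tnsIMs, and 3.15, 6.41 and 6.37 CPM against 19.4, 18.7 and 21.4 CPM in matIMs. The genotypes did not overlap, and the matIM level was above the moM level in both of them. The log2 fold change was 1.98 ± 0.42 (adjusted p = 0.0808), 2.29 ± 0.42 (adjusted p = 0.0228) and 1.90 ± 0.39 (adjusted p = 0.0795). With the replicate block the adjusted p was 0.0261, 0.00616 and 0.0149, and over all alternatives it ran from 0.000834 to 0.326 in moMs, 1.65e-05 to 0.235 in tnsIMs and 0.000733 to 0.397 in matIMs.

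Gpr31b, 6.26 Mb after Ezr, was called higher in tnsIMs (log2 fold change 0.87 ± 0.36) and matIMs (1.15 ± 0.36), with an adjusted p of 1.00 and 0.697, and gave 0.44 ± 0.36 in moMs. In matIMs its libraries did not overlap, at 2.66, 3.59 and 2.80 CPM against 6.45, 6.85 and 6.83 CPM. In tnsIMs they did, at 3.34, 2.16 and 3.76 CPM against 6.52, 2.12 and 8.61 CPM, and the call there was lost without WT library 2 (0.68), Ezr-KOm library 1 (0.74) or Ezr-KOm library 3 (0.50). Gpr31a, 0.577 Mb after Ezr, gave 0.05, 0.49 and -0.12. The sum of the 3 Gpr31 rows, a family added after the values were seen, gave log2 fold changes of 0.90 (adjusted p = 1.00), 1.30 (adjusted p = 0.373) and 1.42 (adjusted p = 0.233), called by the study's rule in each population.

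9030025P20Rik, 8.19 Mb after the Ezr start, measured 2.11, 2.53 and 1.58 CPM in WT and 9.53, 11.3 and 9.83 CPM in Ezr-KOm moMs, 1.59, 1.84 and 1.88 CPM against 9.35, 3.41 and 8.48 CPM in tnsIMs, and 2.04, 2.26 and 2.53 CPM against 10.9, 8.91 and 10.9 CPM in matIMs. Every Ezr-KOm library exceeded every WT library. The log2 fold change was 2.30 ± 0.30 (adjusted p = 0.000765), 1.99 ± 0.31 (adjusted p = 0.00435) and 2.16 ± 0.30 (adjusted p = 0.00149). Its near-identical neighbour Gm3435, whose coding sequence differs at the 4 bases given above, stayed under 1 CPM in each library, with log2 fold changes of 0.35, 0.11 and -0.34. Their sum, also added after the values were seen, rose by 2.08, 1.83 and 1.94 (adjusted p = 0.00212, 0.0112 and 0.00470).

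Tmem242, 1.54 Mb before the Ezr start, encodes a protein of the inner mitochondrial membrane and had no exonic window with an exact second copy in the genome. It measured 14, 20.7 and 19.7 CPM in WT and 41.1, 52.1 and 40.3 CPM in Ezr-KOm moMs, 18.8, 28.98 and 16.1 CPM against 57.8, 52.3 and 40.8 CPM in tnsIMs, and 27.6, 26.7 and 20.1 CPM against 47.8, 45.6 and 44.6 CPM in matIMs. The libraries did not overlap. The fitted log2 fold change was 1.29 ± 0.21 (adjusted p = 0.00864), 1.25 ± 0.21 (adjusted p = 0.0130) and 0.89 ± 0.21 (adjusted p = 0.202). In matIMs the adjusted p was 0.0326 with the replicate block and ran from 0.0243 to 0.682 over the alternatives.

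Synj2, 1.01 Mb before the Ezr start, encodes the inositol 5-phosphatase synaptojanin 2 and was the only neighbour that was lower at an adjusted p under 0.05, which it was in all 3 populations. It measured 31.0, 32.3 and 27.9 CPM in WT and 16.9, 15.97 and 12.3 CPM in Ezr-KOm moMs, 42.2, 35.4 and 38.9 CPM against 17.8, 17.6 and 16.3 CPM in tnsIMs, and 36.1, 33.4 and 35.3 CPM against 21.8, 21.7 and 13.3 CPM in matIMs. The WT libraries lay close together and the genotypes did not overlap. On the log2 scale the change was -1.01 ± 0.17 (adjusted p = 0.0126), -1.17 ± 0.17 (adjusted p = 0.00318) and -0.88 ± 0.17 (adjusted p = 0.0475), and in matIMs it was -0.67, under the fold limit, without Ezr-KOm library 3. The adjusted p in matIMs ran from 0.000917 to 0.340 over the alternatives and was above 0.05 with upper-quartile scaling (0.0739), library totals (0.0677), all genes kept (0.0579), a filter of 10 counts in each library (0.0674), summed paralogs (0.0541), the population fitted alone (0.340) or any single library left out (0.0532 to 0.317). Its gene overlaps Serac1 on the opposite strand, and Serac1 gave -0.42, -0.05 and -0.05, none called.

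Rsph3a, 1.16 Mb after the Ezr start, encodes a radial spoke protein of motile cilia and was counted at low levels. It measured 3.30, 4.60 and 5.24 CPM in WT and 2.04, 2.24 and 2.78 CPM in Ezr-KOm moMs, 4.09, 3.49 and 2.98 CPM against 2.20, 1.16 and 1.57 CPM in tnsIMs, and 3.59, 3.42 and 4.14 CPM against 2.47, 1.55 and 1.76 CPM in matIMs. The libraries did not overlap. Its log2 fold change was -0.90 ± 0.29, -1.11 ± 0.29 and -0.95 ± 0.29, called by the study's rule with an adjusted p of 0.718, 0.366 and 0.685. Its copy Rsph3b, 0.166 Mb after Ezr, gave 0.08, 0.10 and 0.01, and the sum of both gave -0.27, -0.30 and -0.28, not called in any population. The share of Rsph3a in that sum went from a mean of 43.7% to 28.3% in moMs, 42.6% to 24.0% in tnsIMs and 36.6% to 22.9% in matIMs.

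**Figure D3:**
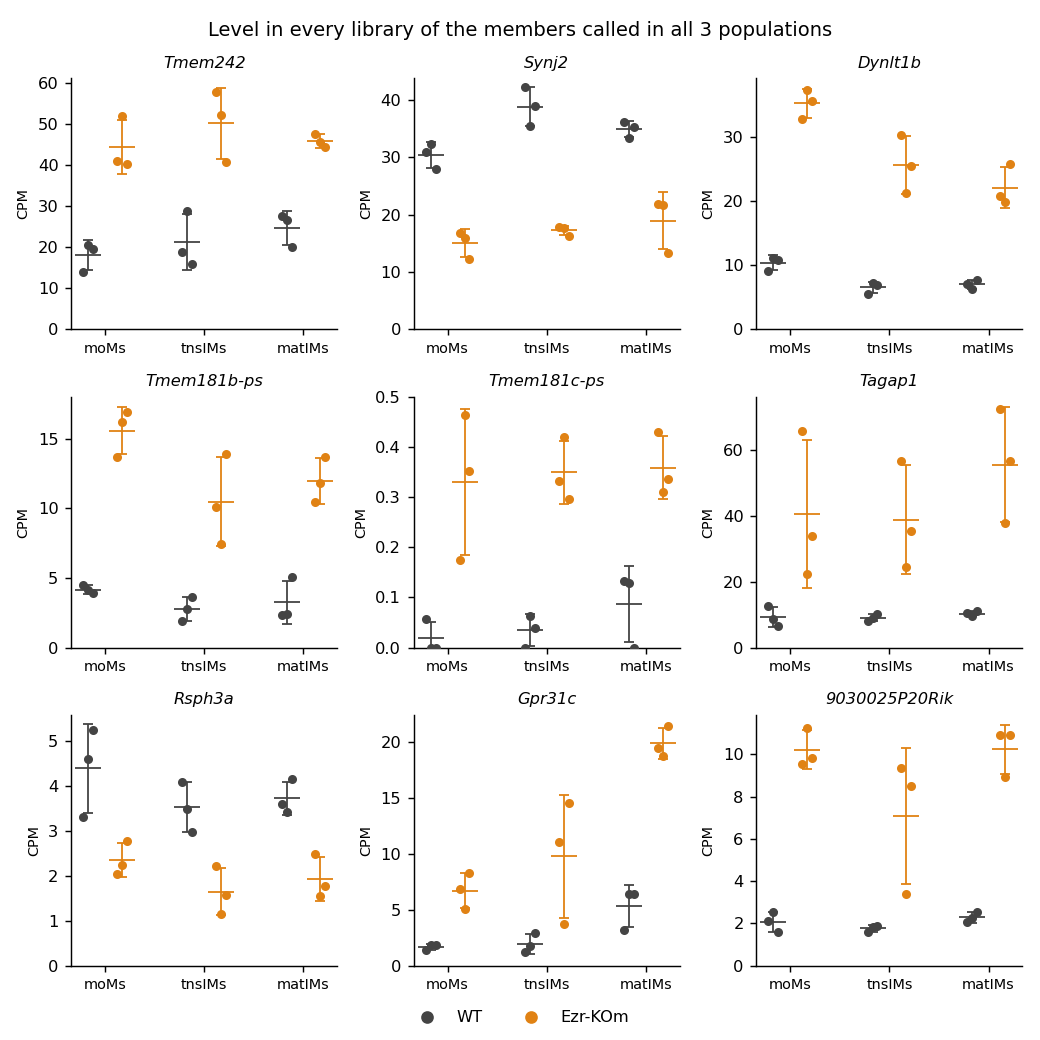
Level in CPM (vertical axis) of the 9 neighbours called in all 3 populations, with a point per library, a bar for the mean and whiskers for the SD of 3 libraries, in WT (grey) and Ezr-KOm (orange) moMs, tnsIMs and matIMs. The genotypes do not overlap in any of the 27 comparisons, and Tmem181c-ps, which reached the count limit in Ezr-KOm libraries only, stays under 0.5 CPM.

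The other calls belonged to 1 or 2 populations. Apart from that of Gpr31b in matIMs, given above, they rested on few counts or on variable libraries. In moMs, Gm49797 (a lncRNA that overlaps Scaf8 on the same strand) measured 2.28, 1.24 and 2.24 CPM in WT against 1.04, 1.08 and 0.793 CPM, with a log2 fold change of -0.97. The lncRNA E430024P14Rik, which overlaps Tagap and Rsph3a on the opposite strand, gave -1.24 in moMs with overlapping libraries, and 1700010I14Rik gave -1.92 at 1.20, 0.373 and 0.551 against 0.131, 0.231 and 0.176 CPM. Each of these calls was lost when a library was left out: WT library 1 for all of them (-0.84, -1.02 and -1.34), also WT library 3 or Ezr-KOm library 3 for Gm49797 (-0.84 and -0.85), and Ezr-KOm library 2 or 3 for E430024P14Rik (-0.82 and -1.04).

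In tnsIMs, Fndc1, which encodes a fibronectin type III domain protein, was lower at 0.709, 0.571 and 0.901 CPM in WT against 0.249, 0.220 and 0 CPM, a call lost without WT library 3 (-1.95) or Ezr-KOm library 3 (-1.60). In matIMs, the lncRNA 4933426B08Rik, the nearest member after the Ezr start at 0.0705 Mb, was higher at 0.177, 0.299 and 0.186 CPM against 1.00, 0.757 and 0.629 CPM, with a log2 fold change of 1.83 ± 0.60, and it was called in moMs without Ezr-KOm library 2 (1.88). Qk, which encodes an RNA-binding protein and is named after its values were seen, was called in matIMs only (0.91 ± 0.40, adjusted p = 1.00). Its WT libraries were spread widely, at 279, 83.6 and 88.5 CPM in moMs and 99.2, 55.0 and 156 CPM in matIMs, against 241, 219 and 252 CPM and 180, 216 and 187 CPM in Ezr-KOm.

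Whether the genotype effect of a neighbour differed between populations was tested as an interaction. At an adjusted p under 0.05, 0 of 75 neighbours differed in any pair of populations, and their smallest adjusted p was 1.00. At an unadjusted p under 0.05, 3 neighbours differed between tnsIMs and moMs (Fndc1, 1700010I14Rik and Tcp10a, the last named after its values were seen), 4% of those tested against 1.47% of all genes. None differed between matIMs and moMs or between matIMs and tnsIMs, where 1.70% and 1.16% of all genes did. DESeq2 also called 0 interactions at an adjusted p under 0.05.

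Some neighbours shifted by less than the fold limit. Mpc1, which encodes a subunit of the mitochondrial pyruvate carrier, measured 16.6, 15.1 and 15.4 CPM in WT and 9.79, 11.1 and 9.26 CPM in Ezr-KOm moMs, without overlap. Its log2 fold changes were -0.64 ± 0.29, -0.74 ± 0.28 and -0.70 ± 0.28 with unadjusted p of 0.0373, 0.0181 and 0.0237 (adjusted p = 1.00 in each, edgeR), so it sat just under the fold limit in all 3 populations. It passed the limit in tnsIMs with DESeq2 on all libraries (-0.76, unadjusted p = 0.0114, adjusted p = 0.848), without WT library 3 (-0.99) or Ezr-KOm library 2 (-1.05), and in matIMs without WT library 3 (-0.94) or Ezr-KOm library 1 (-0.75). Cep43, which encodes a centrosomal protein, gave -0.36 ± 0.14, -0.19 ± 0.14 and -0.25 ± 0.14, and its libraries did not overlap in moMs and tnsIMs. Tulp4 was lower at -0.52 ± 0.15, -0.31 ± 0.15 and -0.47 ± 0.15, without overlap in moMs and matIMs. Tfb1m was higher at 0.52 ± 0.30, 0.74 ± 0.30 and 0.15 ± 0.29, without overlap in moMs and tnsIMs. With the replicate block Tfb1m was called in tnsIMs (0.76, unadjusted p = 0.0146, adjusted p = 0.752, edgeR). Tulp4 and Tfb1m are named after their values were seen.

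The other functional groups among the neighbours held few calls. Of the mitochondrial genes, Tmem242 was called higher in each population, and Mpc1, Serac1 and Mrpl18 were not called by edgeR with all libraries. The ribosomal protein gene Mrpl18 gave -0.26, -0.04 and -0.23. Of 9 actin, adhesion and GTPase genes, 1 was called higher (Tagap1) and 1 lower (Synj2) in each population. The abundant membrane-remodelling gene Snx9 gave -0.07, -0.21 and -0.11, and the junction gene Afdn 0.25, 0.25 and 0.15. Of 8 chromatin, transcription and RNA genes, 0 were called in any population by edgeR, with log2 fold changes between -0.52 and 0.54. Among these, the chromatin remodeller subunit Arid1b gave 0.02, -0.01 and 0.04, and the chromatin gene Phf10 0.00, -0.09 and -0.04. The repair and transcription factor subunit Gtf2h5 gave -0.09, -0.06 and -0.27, and the RNA methylation cofactor Wtap -0.34, -0.18 and -0.16.

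The proteostasis genes Tcp1 and Psmb1 were not called either. Tcp1 measured 154, 179 and 169 CPM in WT and 149, 197 and 154 CPM in Ezr-KOm moMs, with log2 fold changes of -0.00, -0.12 and -0.20 over the populations. Psmb1 gave 0.01, -0.07 and -0.14. None of the 3 lipid genes was called: Acat2, an acetyl-CoA acetyltransferase gene, gave -0.20, -0.15 and -0.06, the acyltransferase gene Agpat4 -0.15, -0.31 and -0.30, and the palmitoyltransferase gene Zdhhc14 -0.12, -0.17 and 0.32. Rnaset2a gave -0.67, 0.39 and -0.34, Rnaset2b 0.39, 0.18 and 0.24, and their sum -0.09, 0.28 and -0.01, none of them called.

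In the imprinted cluster, Igf2r, which encodes the receptor that clears insulin-like growth factor 2, was not called and gave log2 fold changes of 0.03 ± 0.31, -0.37 ± 0.31 and -0.54 ± 0.32. Its antisense transcript Airn, at most 1 CPM in each library, gave 0.85, -0.64 and -1.18, and turned from 0.85 to -2.90 in moMs without Ezr-KOm library 2. The transporter gene Slc22a3, at most 0.638 CPM, gave -1.25, 0.12 and -2.12, and none of the 3 genes passed the rule with all libraries. Slc22a3 was called lower in matIMs with the replicate block (-2.19, unadjusted p = 0.044, adjusted p = 0.829, edgeR) or without Ezr-KOm library 2 (-4.68), and in moMs without Ezr-KOm library 2 (-3.97), and Igf2r in matIMs without Ezr-KOm library 1 (-0.76). Of the secreted and matrix genes, the Notch ligand gene Dll1 was highest in tnsIMs, at 11.4, 15.3 and 12.5 CPM in WT and 10.7, 17.4 and 16.2 CPM in Ezr-KOm, and gave 0.55, 0.18 and 0.50. Without WT library 3 it was called higher in matIMs (1.34). The matrix gene Smoc2 gave 0.90, -0.26 and 0.88. Thbs2, a thrombospondin gene of mesenchymal cells, held 0 counts in the 3 WT moM libraries and 5, 14 and 7 in the Ezr-KOm ones, at least 8.07-fold higher against a floor of 3 counts over the group. It had reached the count limit in Ezr-KOm libraries only and so had to be higher there in some population, and its fold is a description. In tnsIMs it held 9, 4 and 0 counts in WT against 5, 10 and 12 in Ezr-KOm. In moMs the sum of the fibroblast markers given above was also higher in Ezr-KOm without overlap. The sum was higher in matIMs too, where Thbs2 held 3 counts over the group in each genotype. A link between this sum and Thbs2 was not tested.

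Among the genes nearest to Ezr, calls and no calls were mixed. Before the Ezr start the nearest were Sytl3, Dynlt1f and Tmem181c-ps. Sytl3, which encodes a synaptotagmin-like protein and overlaps Ezr on the opposite strand, gave -0.07 ± 0.45, -0.05 ± 0.45 and 0.14 ± 0.45, with levels of 0.539 to 1.83 CPM. After the Ezr start the nearest were 4933426B08Rik, Rsph3b and Tagap1. Per kb of merged exon, the highest mean levels over the 18 libraries were those of Tcp1 (33.5 CPM per kb), Tagap (28.1), Snx9 (23.7), Agpat4 (21.5), Psmb1 (20.7) and Dynlt1b (19.2), against 55.7 CPM per kb for Ezr. These means pool WT and Ezr-KOm libraries, between which the levels of Dynlt1b and Ezr differed.

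Of the neighbours called in all 3 populations, most lie in repeated sequence. Windows of 64 exonic bases were compared with the whole genome, and the share with an exact second copy had a median of 70.8% over the 9 neighbours called in all 3 populations, 7.18% over the 59 called in none and 8.00% over all 75 tested. More than 50% of the windows were repeated in 7 of those 9 genes and in 15 of those 59. Tmem181c-ps, which reached the count limit in Ezr-KOm libraries only, is among the 9 and the 7, and its share is the median of the 9. Over the 16 neighbours called in at least 1 population the median was 42.4%, with 8 of 16 above 50%, so that 1 of the 7 called in fewer than 3 populations was mostly repeated. The shares were 97.1% in 9030025P20Rik, 87.7% in Tmem181b-ps, 73.6% in Dynlt1b, 71.2% in Rsph3a, 70.8% in Tmem181c-ps, 61.6% in Tagap1 and 60.8% in Gpr31c. Synj2 (0.182%) and Tmem242 (0%) were the exceptions, with calls in sequence that is nearly or wholly single-copy. Repeated sequence alone was not matched by a call: Gm3435 (93.4%), Dynlt1f (86.7%) and Dynlt1c (80.7%) were not called in any population. Read pairs are longer than these windows and can be placed where a window alone cannot. The part of read placement in the changes was not tested.

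**Figure D4:**
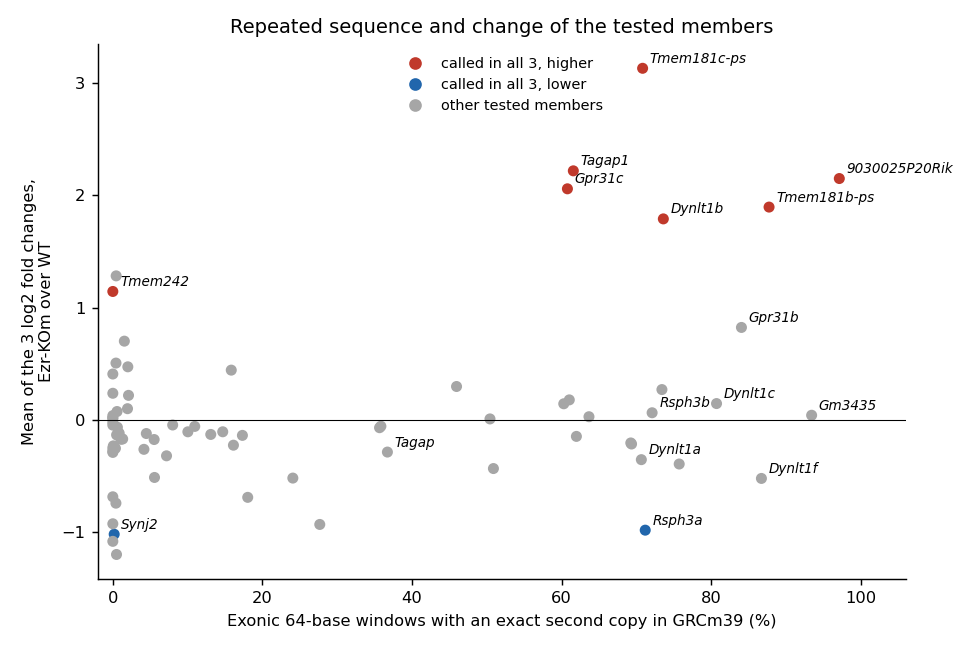
The mean of the 3 log2 fold changes of Ezr-KOm over WT (vertical axis) is plotted against the share of exonic 64-base windows with an exact second copy in GRCm39 (horizontal axis, %) for the 75 tested neighbours, with genes called in all 3 populations in red (higher) or blue (lower). Of the 9 coloured genes 7 lie above 50%, and Synj2 and Tmem242 lie at or near 0%.

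Calls were found at each distance and did not end at 10 Mb. Of the tested neighbours, 6 of 21 within 1 Mb (28.6%), 5 of 16 from 1 to 2.5 Mb (31.2%), 2 of 8 from 2.5 to 5 Mb (25%), 2 of 17 from 5 to 7.5 Mb (11.8%) and 1 of 13 from 7.5 to 10 Mb (7.69%) were called in at least 1 population. By position, 6 of 25 lay before Ezr and 10 of 50 after it. Tmem181c-ps, which reached the count limit in Ezr-KOm libraries only, is among those called within 1 Mb and before Ezr. On the other chromosomes together, 5.14% of 15007 tested genes were called in at least 1 population and 0.233% in the same direction in all 3. Single chromosomes other than 17 ranged from 3.25% to 9.94% (chromosome 12) in at least 1 population, and up to 1.52% in all 3 (chromosome 4, 8.59% in at least 1), so the shares from 7.5 to 10 Mb and beyond 20 Mb lie within the range of other chromosomes for calls in at least 1 population. Further along chromosome 17, 34 of 154 genes from 10 to 20 Mb (22.1%), 18 of 257 from 20 to 30 Mb (7%), 5 of 152 from 30 to 50 Mb (3.29%) and 7 of 163 beyond 50 Mb (4.29%) were called in at least 1 population, and 12, 3, 1 and 0 of them in all 3. These shares are counts over genes that can overlap or share sequence, and the differences between them were not tested. The last neighbour inside the window, the pseudogene Gm46610 at 9.54 Mb, gave -0.16, 0.20 and -0.25, and the first expressed gene outside it, the lncRNA BC002059 at 10.2 Mb, gave 0.09, -0.36 and 0.42. The 32 rows inside the window that missed the count limit had at most 29 counts in any library.

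**Figure D5:**
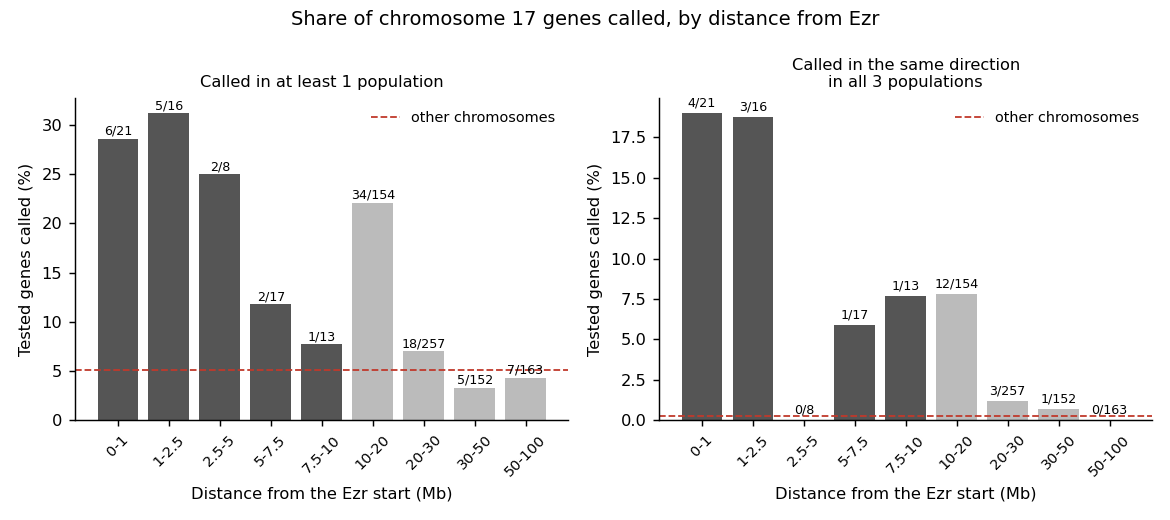
Bars give the share of tested chromosome 17 genes (%) that were called in at least 1 population (left) or in the same direction in all 3 (right), by distance from the Ezr start in Mb, with the counts above them; dark bars are inside 10 Mb, light bars beyond it, and the dashed line is the share on the other chromosomes (5.14% and 0.233%, pooled). On the left, each bar up to 30 Mb stands above the line and those beyond 30 Mb lie under it.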

How the data were processed

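Reads were aligned by the authors to GRCm39 with STAR 2.7.9a and the deposited values are raw read counts per gene of Gencode M29, from STAR's gene counting, which keeps uniquely placed reads; the strand setting is not given in the sources used here. From these counts, edgeR 4.0.16 in R 4.3.3 was run on all 18 libraries: filterByExpr on the 6 groups (smallest count 10; 15811 genes kept), TMM, 1 quasi-likelihood model, and contrasts of Ezr-KOm with WT within each population. The members, gene lists and rule for named genes were chosen with earlier results of these data known. The genes named were Ezr, those at an adjusted p under 0.05, those called in at least 2 populations, the 5 smallest p per direction and population, the 3 nearest to Ezr on each side, the most abundant members of each gene group, the paralog families, and the genes at the window's edge; other names are marked. Overlapping and near-identical genes can share or lose counts. Replicates differed by more than sampling noise (chi-square per degree of freedom 21.9 to 96.3), and, with 3 mice per genotype, each mouse gave 1 library of each population. Replicate numbers paired the samples: deviations from the group means correlated by 0.102 to 0.316 between WT and Ezr-KOm libraries of the same number and by at most 0.0508 otherwise. The main model had no term for mouse or replicate number, so its p and adjusted p treat the 18 libraries as independent. The pipeline was tested on simulated data. Sequences, exon lengths and repeats came from GRCm39 with Gencode vM39, with Biopython 1.88 for alignments. Alternatives were DESeq2 1.42.0, other scalings and filters, robust empirical Bayes, each population alone, a replicate block, summed paralogs and each library left out. Some values of members are not reported here.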

Additional observations from a re-analysis of the deposited data

How the results depend on the processing

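The direction of the 9 changes called in all 3 populations held under each alternative run, and their calls by the study's rule held except those of Synj2 and Tmem181c-ps in matIMs without single libraries (see the values beside them); with at least 10 counts in every library or each population fitted alone, Tmem181c-ps was not tested, and rows summed with their paralogs have no value of their own. Summing the planned paralog families merges rows and gave 3 members at an adjusted p under 0.05 in moMs and 1 in matIMs, 7 by the study's rule in matIMs, and 4 in all 3 populations. With 2 more families summed, chosen after seeing the data, these were 3, 1, 6 and 4, and tnsIMs gave 4 at an adjusted p and 7 by the study's rule. With each population fitted alone, 2 members were called at an adjusted p in tnsIMs. With single libraries left out, counts at an adjusted p ran from 4 to 7 in moMs, 2 to 7 in tnsIMs (2 without WT library 1, 4 without Ezr-KOm library 1) and 4 to 5 in matIMs, and counts by the study's rule from 12 to 17 (17 without Ezr-KOm library 2), 10 to 13 and 11 to 14, with 8 to 9 in all 3. Airn in moMs ran from -2.90 to 1.40. The replicate block gave 7 members at an adjusted p in each population, which added Gpr31c in moMs and Gpr31c and Tmem242 in matIMs. By the study's rule it gave 12, 14 and 13. Among named genes it ended no call and added Slc22a3 in matIMs, and Tfb1m (0.76) and Tcp10a (-1.16) in tnsIMs. No alternative gave an interaction at an adjusted p under 0.05. Of 107 uncalled changes of named genes, 45 changed sign under some alternative. Members under about 1 CPM, such as Airn, Slc22a3, Fndc1 and Tmem181c-ps, were limited by depth.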
